A study of Mus musculus with 9 samples.

Results

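The immunoglobulin gene segments described here are the genes that the table annotates as immunoglobulin constant, variable, joining (J) or diversity (D) segments and not as pseudogenes. Members were selected on their measured values: a segment was kept if its FPKM (fragments per kilobase of gene length, scaled to library size) was at least 1 in at least 1 of the 9 libraries. The rule kept 231 of the 268 segments listed, in a table of 54532 genes. It kept all 13 constant genes, 200 of 218 variable segments, 12 of 14 J segments and 6 of 19 D segments. None of the 4 entries typed as LV segments was kept. Of the variable segments, 100 lay in the heavy chain locus, 97 in the kappa locus and 3 in the lambda locus. Just inside the threshold, the highest FPKM was 1.04 for Ighv6-4, 1.18 for Igkv4-78 and 1.28 for Igkv4-62. Just outside it, it was 0.722 for Igkv18-36, 0.542 for Ighv6-5 and 0.375 for Ighv1-23. Of the members, 77 reached the threshold in all 9 libraries and 8 in a single library.

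Bulk RNA-seq was performed on CD11c-positive dendritic cells (DCs) sorted from mouse spleen, with 3 libraries in each of 3 groups. N-mDCs were mature conventional DCs of healthy mice. T-DCs were CD11c+MHCIIlo cells, and T-mDCs were mature conventional DCs, both from mice at a late stage of T cell acute lymphoblastic leukemia (T-ALL). The leukemia was driven by a retrovirus carrying the intracellular domain of Notch1 and GFP, put into c-kit+ bone marrow cells of C57BL/6J mice, and leukemic cells were passed on to recipients that were not irradiated. Animals were young adult females of the C57BL/6J background, recipients being C57BL/6J or its congenic strain C57B6.SJL. Red cells were lysed before sorting, and the sorting scheme shown for T-DCs left out cells bearing GFP or surface markers of lymphocytes. Nothing in the labels says whether a library came from 1 mouse or from pooled mice, so p-values measure only the spread between these libraries.

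Antibodies are made by the B lineage. In a B cell, a heavy chain V, D and J segment and a light chain V and J segment are joined to encode the antigen-binding domain, and the constant gene downstream sets the isotype. Ighm and Ighd are made together by mature naive B cells through alternative processing of one long transcript. After class switching, an Ighg, Igha or Ighe constant gene takes the place of Ighm, and plasma cells carry very large amounts of these transcripts together with Jchain, which links IgM and IgA into polymers.

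The joining segments are shown first because the balance of J, V and constant reads separated the libraries. The capitals mark the codons of the motif of phenylalanine or tryptophan, glycine, any residue and glycine, which lies at the start of framework region 4. All sequences are from the GENCODE M21 transcripts on GRCm38, 5′ to 3′ on the coding strand.
Ighj1, chr12:113429781-113429833, minus strand: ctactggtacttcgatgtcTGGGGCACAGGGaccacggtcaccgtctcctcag
Ighj3, chr12:113429085-113429132, minus strand: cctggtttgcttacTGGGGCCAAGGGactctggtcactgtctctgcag
Ighj4, chr12:113428514-113428567, minus strand: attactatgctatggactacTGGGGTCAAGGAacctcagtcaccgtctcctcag
Igkj1, chr6:70722562-70722599, plus strand: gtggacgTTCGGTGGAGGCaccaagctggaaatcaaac
Igkj2, chr6:70722916-70722958, plus strand: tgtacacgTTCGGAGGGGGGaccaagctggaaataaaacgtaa
Iglj1, chr16:19063225-19063262, minus strand: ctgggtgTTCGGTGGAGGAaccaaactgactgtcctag
The D segment nearest to the heavy chain J segments is Ighd4-1, which is shown because it had the highest read count of any D segment, 15 in T-mDC 1.
Ighd4-1, chr12:113430528-113430538, minus strand: ctaactgggac
Variable segments on which the results turn are given by their 3′ ends: most were among the leading 3 of 1 or more libraries, Igkv1-110 is a close copy of one of these, and the last 3 passed the test between groups. Each is shown over its last 60 coding bases, with the codon of the conserved second cysteine in capitals. The coordinates are those of the whole gene.
Iglv1, chr16:19085017-19085500, minus strand: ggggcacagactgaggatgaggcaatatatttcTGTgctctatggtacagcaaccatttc
Igkv1-117, chr6:68121046-68121827, plus strand: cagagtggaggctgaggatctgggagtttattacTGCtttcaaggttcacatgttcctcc
Igkv1-110, chr6:68270485-68271267, plus strand: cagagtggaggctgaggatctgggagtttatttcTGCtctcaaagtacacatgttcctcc
Igkv1-135, chr6:67609713-67610508, plus strand: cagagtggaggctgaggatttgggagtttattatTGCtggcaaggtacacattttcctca
Igkv14-111, chr6:68256389-68256869, plus strand: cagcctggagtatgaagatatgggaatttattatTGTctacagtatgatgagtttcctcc
Ighv1-26, chr12:114788372-114788805, minus strand: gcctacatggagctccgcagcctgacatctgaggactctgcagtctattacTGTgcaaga
Ighv9-3, chr12:114140692-114141122, minus strand: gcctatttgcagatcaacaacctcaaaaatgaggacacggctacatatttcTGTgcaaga
Igkv10-96, chr6:68631963-68632442, minus strand: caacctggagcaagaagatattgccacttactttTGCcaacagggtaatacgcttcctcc
Ighv1-11, chr12:114612243-114612675, minus strand: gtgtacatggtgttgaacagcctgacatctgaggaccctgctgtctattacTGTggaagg
Ighv3-4, chr12:114253617-114254051, minus strand: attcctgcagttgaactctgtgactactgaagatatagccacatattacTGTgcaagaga
Ighv1-37, chr12:114896238-114896671, minus strand: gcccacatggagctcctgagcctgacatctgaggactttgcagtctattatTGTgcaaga
Many variable segments are close copies of one another. Over their last 280 coding bases, 100 of the 200 variable members had another member of the same locus at an identity of at least 95%, and 16 had one at 98% or more. Igkv1-117 and Igkv1-110 were 96.8% identical and Ighv1-37 was 98.6% identical to Ighv1-20, so the division of reads within such pairs is uncertain. The leading segments Iglv1, Ighv1-26, Igkv1-135 and Ighv9-3 also had such a neighbor, at 97.5%, 97.1%, 96.1% and 95%. For Igkv14-111 and Igkv10-96 the nearest was at 90.7% and 94.3%. Ighv1-11 had no neighbor above 82.5% and Ighv3-4 none above 85.7%. Among the constant genes, Iglc2 and Iglc3 were 96.2% identical and Ighg2c and Ighg2b 87.6%, and the other heavy chain constant genes were farther apart.

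The libraries held 15360815 to 18440913 reads on genes, recovered from the FPKM as whole reads. T-mDC libraries 2 and 3 stood together in most values below. Their variable segment use had 74.7% of the distribution in common, where other pairs within a group had 64.4% to 75.8%. It differed by more than the sampling of reads, with a chi-square per segment of 3.43 over 63 segments where sampling gives about 1. This was the lowest chi-square of any pair, and other pairs within a group had 6.57 to 78.6. Both measures depend on the number of variable segment reads, which was lowest in these libraries, at 2101 and 1723. T-mDCs 2 and 3 were both kept as samples, and the main tests that involve T-mDCs are also given with their mean as 1 sample. All 10 listed DC genes were detected in all libraries, but 8 of them were called lower in T-DCs in both comparisons: the major histocompatibility class II genes H2-Aa, H2-Ab1 and H2-Eb1, their chaperone Cd74, Flt3, Clec9a, Xcr1 and Zbtb46. Itgax, which encodes CD11c, was at 43.0 to 152 FPKM in T-DCs and 158 to 230 elsewhere and was not called, nor was Sirpa.

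Immunoglobulin genes took a share of the reads that varied more within groups than between them. In N-mDCs 1, 2 and 3 they took 0.273%, 1.79% and 0.523% of reads on genes. In T-DCs they took 0.182%, 1.96% and 1.15%, and in T-mDCs 0.951%, 0.103% and 0.103%. The highest library of each group exceeded the lowest by 6.56, 10.8 and 9.24 times, and the ranges of the 3 groups overlapped. The means were 0.863% ± 0.814 (SD, n = 3) in N-mDCs, 1.10% ± 0.891 (SD, n = 3) in T-DCs and 0.386% ± 0.490 (SD, n = 3) in T-mDCs. Constant genes held 73.0% to 89.5% of the immunoglobulin reads and variable segments 9.61% to 26.9%. J segments held at most 0.843% and D segments at most 0.0391%.

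**Figure D1:**
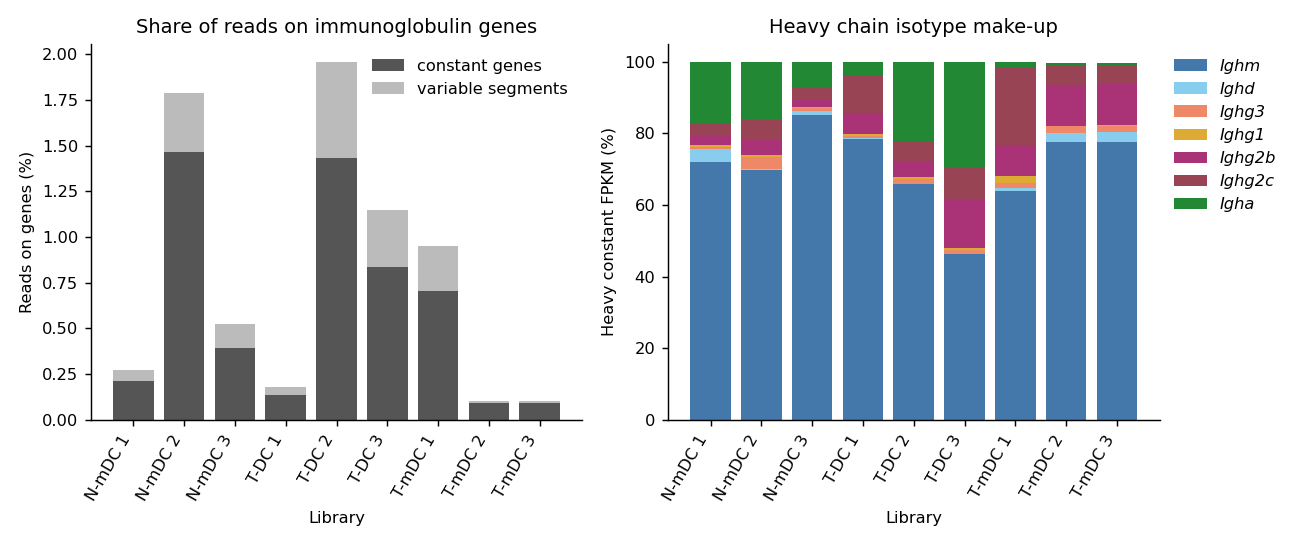
Left, percent of reads on genes that fell on immunoglobulin constant genes (dark) and variable segments (light) in each library. Right, each heavy chain constant gene except Ighe as a percent of the summed heavy chain constant FPKM of the library, a sum that includes Ighe. N-mDC 2 and T-DC 2 and 3 stand above 1% of reads, Igha is at most 1.34% of the heavy chain total in the 3 T-mDC libraries, and Ighm is the largest part in all 9.

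By FPKM the most abundant member was Igkc, the constant gene of the kappa light chain, in 7 libraries and Ighm, the constant gene of IgM, in T-mDCs 2 and 3, while Ighm had more reads than Igkc in all 9. The FPKM of Igkc was 879.6, 8193 and 1789 in N-mDCs, 523, 7274 and 4103 in T-DCs and 2730.4, 134 and 142 in T-mDCs. T-mDCs 2 and 3 were the lowest of all libraries, and the 3 groups overlapped. Ighm stood at 562, 3471 and 1225 in N-mDCs, 446, 3659.8 and 1298 in T-DCs and 1700.0, 306 and 309.5 in T-mDCs. The difference of T-DCs from T-mDCs on the log2(FPKM + 1) scale was 2.74 ± 1.42 (SE) for Igkc, with an adjusted p of 0.234 by limma, and 1.24 ± 0.98 for Ighm, with an adjusted p of 0.429. Neither passed the threshold of 0.05, and with T-mDCs 2 and 3 as 1 sample the adjusted p were 0.527 and 0.721.

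**Figure D2:**
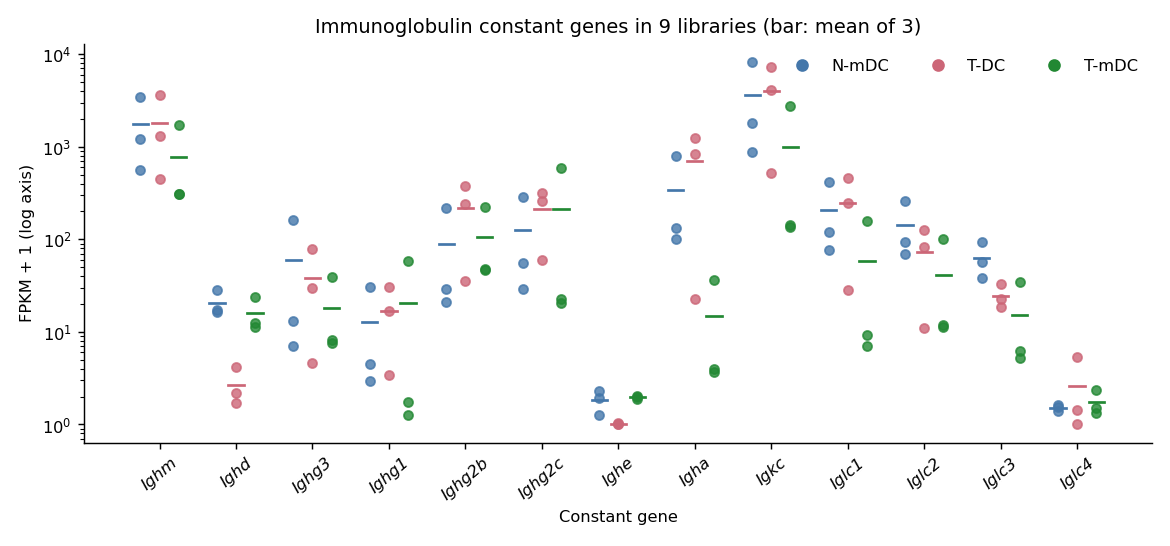
FPKM + 1 on a log axis of the 13 constant genes, 1 point per library and a short bar at the mean of the 3 libraries of a group. Igkc and Ighm lead in every group, and the 3 T-DC points of Ighd lie well below the 6 points of the other libraries.

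Ighd was the only constant gene among those tested that separated T-DCs from both groups of mature DCs. It encodes the constant region of IgD, the second antigen receptor isotype of naive mature B cells. Its FPKM was 27.5, 16.1 and 15.3 in N-mDCs, 1.20, 3.16 and 0.693 in T-DCs and 23.0, 10.3 and 11.4 in T-mDCs. Every T-DC library was below every other library, with 41, 93 and 20 reads against 379 to 825. The mean was 1.69 ± 1.30 (SD, n = 3) in T-DCs, 19.6 ± 6.83 in N-mDCs and 14.9 ± 7.04 in T-mDCs. On the log2(FPKM + 1) scale Ighd was lower in T-DCs by 3.0 ± 0.41 (SE) than in N-mDCs and by 2.59 ± 0.41 than in T-mDCs, with adjusted p of 0.00297 and 0.0058 (limma). T-mDCs did not differ from N-mDCs beyond the spread, at -0.41 ± 0.41 with an adjusted p of 0.66. Ighd passed the test in both T-DC comparisons under all 23 alternative settings tried, of which median-of-ratios scaling repeats the main fit. With T-mDCs 2 and 3 as 1 sample the adjusted p was 0.00659 and 0.0231.

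Ighd and Ighm did not move together. Per 100 Ighm reads, there were 4.92, 0.466 and 1.26 Ighd reads in N-mDCs, 0.272, 0.0869 and 0.0538 in T-DCs and 1.36, 3.40 and 3.70 in T-mDCs. The 3 T-DC libraries were below the other 6, although T-DC 2 had the most Ighm of all libraries. N-mDC 2, with the most Ighm of its group, was the next lowest. This ratio was not tested.

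**Figure D3:**
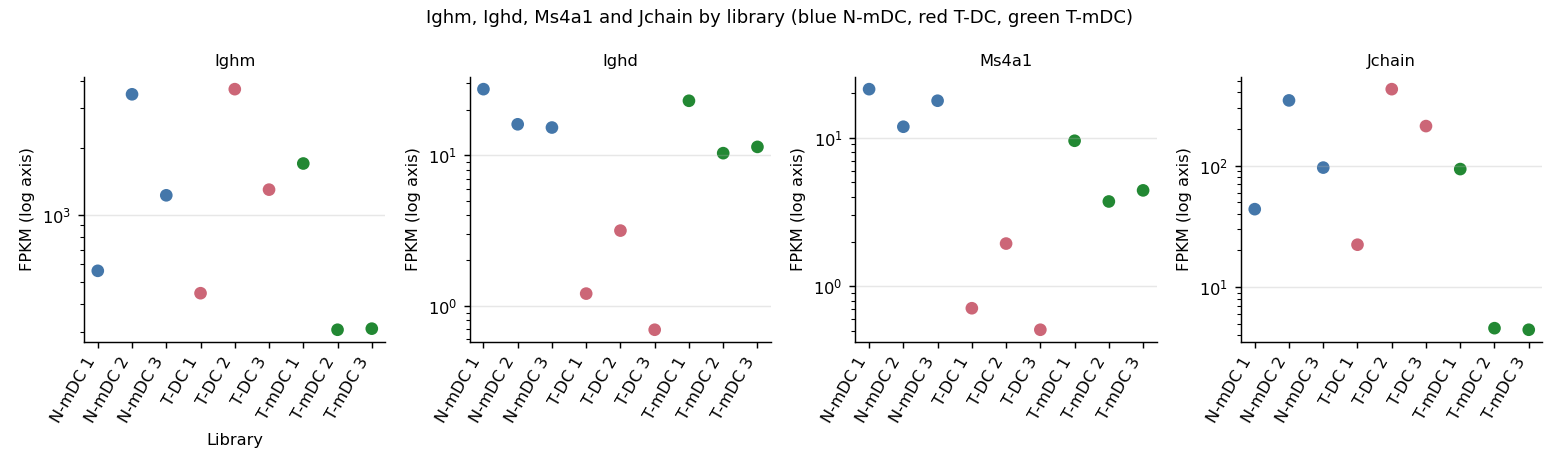
FPKM on log axes of Ighm, Ighd, the B cell gene Ms4a1 and the plasma cell gene Jchain in each of the 9 libraries. Ighd is lowest in the 3 T-DC libraries, while Ighm and Jchain are highest in T-DC 2 and N-mDC 2.

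Igha and the Ighg genes, the switched isotypes, varied widely between libraries of a group. Igha, the constant gene of IgA, had FPKM of 132, 789 and 99.5 in N-mDCs, 21.6, 1234 and 828 in T-DCs and 35.7, 2.68 and 2.96 in T-mDCs. It was lower in every T-mDC library than in every N-mDC library, but T-DC 1 was below T-mDC 1. The difference of T-DCs from T-mDCs was 5.13 ± 1.59 (SE) on the log2(FPKM + 1) scale with an adjusted p of 0.0642, and that of T-mDCs from N-mDCs was -4.76 ± 1.59 with an adjusted p of 0.178. The first passed the threshold once T-DC 1 was left out, with an adjusted p of 0.00281, or T-mDC 1, with 0.0442, and was at 0.209 with T-mDCs 2 and 3 as 1 sample. The second passed without T-DC 1, with an adjusted p of 0.0337, and was at 0.492 with T-mDCs 2 and 3 as 1 sample. As a share of heavy chain constant FPKM, Igha made up 17.0%, 15.9% and 6.93% in N-mDCs, 3.79%, 22.2% and 29.5% in T-DCs and 1.34%, 0.679% and 0.742% in T-mDCs. By this share every T-mDC library was below every other library, which was not tested.

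The 4 Ighg genes together made up 6.72% to 13.9% of the heavy chain constant FPKM in N-mDCs. Their share was 11.9% to 24.1% in T-DCs, and in T-mDCs it was 18.5% to 33.9%. The lead among them changed from library to library. Ighg2c had FPKM of 27.8, 288 and 54.8 in N-mDCs, 58.9, 315 and 256 in T-DCs and 585, 21.7 and 19.7 in T-mDCs. It exceeded Ighg2b 2.61 times in T-mDC 1, whereas Ighg2b led in T-DC 3 and in T-mDCs 2 and 3, where the ratio of Ighg2c to Ighg2b was 0.683, 0.479 and 0.422. Ighg1 ranged from 0.26 in T-mDC 2 to 57.1 in T-mDC 1, and Ighg3 from 3.56 in T-DC 1 to 159 in N-mDC 2. None of the 4 passed the test in any comparison, and for each the groups overlapped. Ighe, the constant gene of IgE, was at most 1.29 FPKM in any library and was too low to be tested. It had 32, 24 and 8 reads in N-mDCs, 0, 0 and 1 in T-DCs and 31, 27 and 28 in T-mDCs. As for Ighd, the 3 T-DC libraries were below the others.

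The kappa chain dominated the light chains in each library. Igkc made up 82.8%, 91.4% and 86.9% of light chain constant FPKM in N-mDCs, 90.6%, 92.1% and 92.2% in T-DCs and 90.4%, 85.6% and 86.0% in T-mDCs. Over variable segment reads the kappa share was 85.0% to 91.8%. Among the lambda constant genes, Iglc1 led in all T-DC libraries with FPKM of 27.1, 461 and 246, and Iglc2 led in T-mDCs 2 and 3 with 10.7 and 10.3. Iglc3 had FPKM of 37.4, 92.8 and 55.8 in N-mDCs, 17.4, 31.7 and 21.4 in T-DCs and 33.5, 5.27 and 4.21 in T-mDCs. All N-mDC libraries were above all others, but the differences of -1.31 ± 0.68 (SE) and -2.50 ± 0.68 on the log2(FPKM + 1) scale had adjusted p of 0.2 and 0.11 (limma). Without T-mDC 1 the adjusted p were 0.0474 and 0.0167, and with T-mDCs 2 and 3 as 1 sample 0.207 and 0.364. Iglc4 stayed at or below 4.32 in every library.

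The proportion of variable, J and constant reads set T-mDCs 2 and 3 apart. Per 100 heavy chain constant reads there were 16.4, 11.4 and 18.8 heavy chain variable reads in N-mDCs, 20.1, 22.7 and 24.2 in T-DCs and 20.9, 5.65 and 4.62 in T-mDCs. The kappa locus did not show this, with 42.6 to 83.0 variable reads per 100 Igkc reads over the 9 libraries, and 82.2 and 66.4 in T-mDCs 2 and 3. Lambda variable reads per 100 lambda constant reads were lowest in T-mDCs 2 and 3, at 55.0 and 59.9, but close to the 60.1 of N-mDC 1. They reached 107.7 in T-DC 3. The heavy chain J segments went the other way. Per 100 heavy chain variable reads they held 2.15, 0.274 and 2.01 in N-mDCs, 2.58, 0.235 and 0.276 in T-DCs and 1.41, 15.0 and 19.7 in T-mDCs. Kappa J reads per 100 kappa variable reads were also highest in T-mDCs 2 and 3, at 1.68 and 1.84, against 0.342 to 1.61 elsewhere. Those values rest on 19 and 17 kappa J reads. In counts, T-mDCs 2 and 3 had 127 and 131 heavy J reads beside 845 and 666 heavy variable reads, and T-DC 2 had 95 beside 40512. Igkc over Ighm in FPKM was 0.437 and 0.459 in T-mDCs 2 and 3 and at least 1.17 in the 7 other libraries.

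Single J and D segments rested on few reads, and their annotated lengths of 10 to 100 bases inflate FPKM, so they are given as reads. Ighj1 had 20, 21 and 72 reads in N-mDCs, 30, 16 and 7 in T-DCs and 41, 38 and 34 in T-mDCs. Its FPKM was higher in all T-mDC than in all T-DC libraries, but the difference did not pass the test, with an adjusted p of 0.214 (limma), or 0.381 with T-mDCs 2 and 3 as 1 sample. Ighd4-1 had 6, 0 and 1 reads in N-mDCs, 2, 0 and 1 in T-DCs and 15, 7 and 6 in T-mDCs, and had an adjusted p of 0.123 between T-DCs and T-mDCs, or 0.241 with T-mDCs 2 and 3 as 1 sample. Iglj1 held most of the lambda J reads, with 72 in N-mDC 2 and 70 in T-DC 2. No J or D segment passed the test in any comparison. How the counting treated a read that spans 2 annotated segments is not given in the sources used here.

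**Figure D4:**
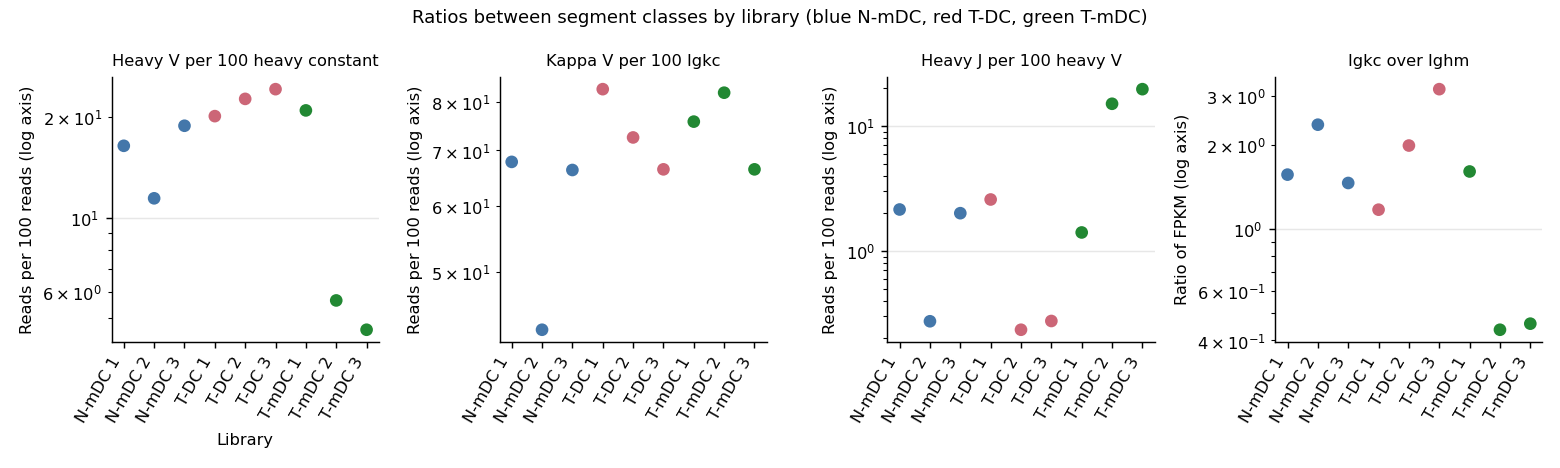
Ratios by library on log axes: heavy chain variable reads per 100 heavy chain constant reads, kappa variable reads per 100 Igkc reads, heavy chain J reads per 100 heavy chain variable reads, and Igkc FPKM over Ighm FPKM. T-mDCs 2 and 3 are lowest in the first and the last and highest in the third, and lie within the range of the others in the second.

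Variable segment use was broad in each library. Between 150 and 193 of the 200 variable members had at least 1 read, and 150.0 to 160.2 would be seen at an equal depth of 1723 variable segment reads, the depth of T-mDC 3. The effective number of segments (inverse Simpson index) was 45.3, 61.1 and 67.3 in N-mDCs, 70.1, 71.3 and 54.6 in T-DCs and 66.4, 68.2 and 60.7 in T-mDCs. The largest segment of a library held 3.15% to 7.82% of its variable reads. The Ighv1 family made up 49.8% to 65.9% of heavy chain variable reads.

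The lambda segment Iglv1 was among the 4 leading segments of every library, with 6.41%, 5.53% and 5.16% of variable reads in N-mDCs, 3.15%, 4.63% and 4.51% in T-DCs and 3.83%, 3.24% and 4.93% in T-mDCs. Igkv1-117 was among the leading 3 in the N-mDC libraries, with 5.08%, 3.62% and 3.97%. It was also among them in T-DC 2 with 3.36% and in T-mDC 2 with 4.05%, and held 1.92% to 3.11% in the rest. Some other segments of the leading 3 stood out in a single library. Ighv1-26 held 7.82% of variable reads in N-mDC 1 and 1.51% to 2.73% elsewhere. Ighv9-3 and Igkv10-96 held 6.06% and 5.02% in T-DC 3 and at most 2.08% and 2.18% elsewhere. In T-DC 3, Ighv9-3 accounted for 12.7% of the heavy chain variable reads and Igkv10-96 for 10.8% of the kappa variable reads. The rest of the leading 3 included Igkv3-4 in N-mDC 2 with 3.75% and Igkv5-39 in N-mDC 3 with 3.23%. They also included Igkv19-93 in T-DC 1 with 3.05% and Ighv1-80 in T-DC 2 with 2.76%, beside Ighv14-2, described below. In other libraries Ighv1-80 reached 3.01% (N-mDC 3), Igkv19-93 2.60% (T-mDC 1), Igkv5-39 2.53% (N-mDC 2) and Igkv3-4 2.07% (T-DC 2).

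Igkv1-135 and Igkv14-111 were the segments that the T-mDC libraries had in common among their leading 3. Igkv1-135 held 4.76%, 4.33% and 4.82% of variable reads in T-mDCs, 1.44%, 1.13% and 1.70% in N-mDCs and 2.45%, 1.24% and 1.25% in T-DCs. Igkv14-111 held 3.69%, 3.52% and 3.48% in T-mDCs, 1.42%, 1.40% and 1.03% in N-mDCs and 2.35%, 1.01% and 0.883% in T-DCs. T-DC 1 was the nearest to the T-mDC values for both. The FPKM of neither differed between T-mDCs and the other groups by the test, the adjusted p ranging from 0.504 to 0.869. These shares were singled out for their pattern and were not tested.

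Over the 200 segments, the shares of T-DC 1 were closest to those of T-mDC 1, with Pearson's r of 0.832 and 79.4% of the distribution in common, against 0.69 and 0.521 with T-DCs 2 and 3. T-mDC 1 had r of 0.83 and 0.827 with T-mDCs 2 and 3, which had 0.848 with each other. Ighv14-2 was part of the likeness, with 3.08% in T-DC 1 and 3.13% in T-mDC 1 against 0.203% to 1.68% in the other 7. N-mDC 3 was closest to T-DC 2, with r of 0.856, ahead of N-mDC 2 with 0.834. These correlations are across segments of 2 libraries that share one germline repertoire, and segments are not independent replicates.

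**Figure D5:**
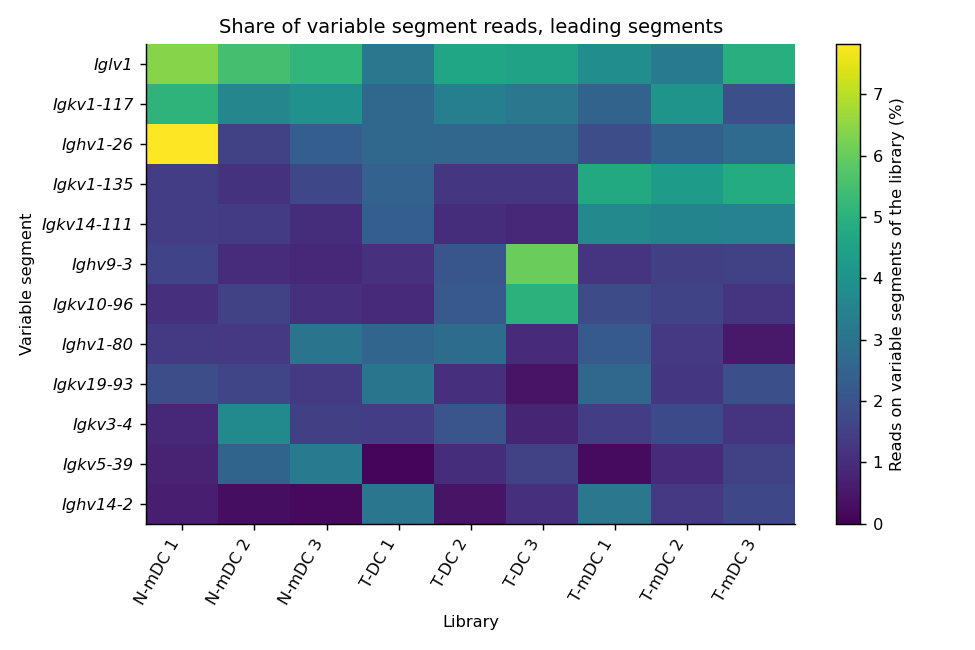
Percent of the variable segment reads of each library held by the 12 segments that were among the leading 3 of at least 1 library, in order of their mean. Iglv1 is bright in all columns, Igkv1-135 and Igkv14-111 in the 3 T-mDC columns, Ighv1-26 in N-mDC 1, and Ighv9-3 and Igkv10-96 in T-DC 3.

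Few members passed the test between groups. Of the 231 members, 207 had FPKM of at least 1 in at least 3 libraries and were tested among 12746 genes. Against N-mDCs, 3 members differed in T-DCs, with 1 higher and 2 lower, while 16.4% of all genes did. Against T-mDCs, 2 members differed in T-DCs, 1 in each direction, while 14.2% of all genes did. Between T-mDCs and N-mDCs 2 members differed, both lower in T-mDCs, while 2.21% of all genes did. The members' median log2 difference was 0.42 for T-DCs against N-mDCs, 1.98 for T-DCs against T-mDCs and -1.46 for T-mDCs against N-mDCs, where that of all genes was 0.05, 0.07 and 0.03. Leaving out 1 library moved these medians to between -0.12 (without T-DC 2) and 1.28 (without T-DC 1) for the first, between 1.29 (without T-DC 2) and 3.15 (without T-mDC 1) for the second, and between -2.50 (without T-mDC 1) and -0.91 (without T-mDC 3) for the third. With T-mDCs 2 and 3 as 1 sample the medians of the T-mDC comparisons were 1.41 and -0.94. These 3 comparisons share groups. Of the members called, Ighv1-11 and Ighv1-37 entered the test through the group in which they were high. Groups did not overlap for 8, 7 and 8 of the 207 members, beside 32.4%, 34.9% and 35.0% of all genes.

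One library on either side changed these counts. Without T-DC 1, the T-DC library with the fewest immunoglobulin reads, 13 members differed from N-mDCs, where 39.5% of all genes did, and 67 differed from T-mDCs, 66 of them higher in T-DCs, where 35.1% of all genes did. Without T-mDC 1, the T-mDC library with the most, 56 members differed between T-DCs and T-mDCs, 55 of them higher in T-DCs, where 14.3% of all genes did. With T-mDCs 2 and 3 as 1 sample the counts were 3, 2 and 0 of 207 members, beside 1394, 540 and 23 of 12746 genes.

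Among variable segments, Ighv1-11 had its highest levels in T-DCs. Its FPKM was 0.182, 1.06 and 0.785 in N-mDCs, 2.23, 6.80 and 6.19 in T-DCs and 0.755, 0 and 0 in T-mDCs, with 14, 37 and 33 reads in T-DCs and at most 6 elsewhere. It reached an FPKM of 1 in the 3 T-DC libraries and in N-mDC 2, so that it entered the test through the group in which it was high, and its p-values are given as a description. The log2(FPKM + 1) difference was 1.79 ± 0.39 (SE) from N-mDCs and 2.23 ± 0.39 from T-mDCs, with adjusted p of 0.0187 and 0.00872 (limma). The second held under all 22 alternatives that tested it, and the first was lost under 7, among them each of N-mDC 1, N-mDC 3, T-DC 2 and T-DC 3 left out, with adjusted p up to 0.0732.

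Ighv1-37 and Ighv3-4 had their highest levels in N-mDCs. Ighv1-37 had 6, 19 and 10 reads in N-mDCs, 0, 0 and 3 in T-DCs and 1, 0 and 0 in T-mDCs. It entered the test through the 3 N-mDC libraries alone, where it was high, so its p-values are a description, and it is 1 of the near-identical segments. Its log2(FPKM + 1) difference from N-mDCs was -1.30 ± 0.30 in T-DCs, with an adjusted p of 0.0219, and -1.45 ± 0.30 in T-mDCs, with 0.0483 (limma). The first was lost without N-mDC 3 or T-DC 2, with adjusted p up to 0.0798. Ighv3-4 had FPKM of 2.72, 2.99 and 5.77 in N-mDCs, 0.949, 2.38 and 2.43 in T-DCs and 0, 0.733 and 0.154 in T-mDCs, and was lower in T-mDCs than in N-mDCs by 1.88 ± 0.33, with an adjusted p of 0.029. Of 22 alternatives, 12 kept this call of Ighv3-4, and 18 and 7 kept those of Ighv1-37 in T-DCs and T-mDCs. With T-mDCs 2 and 3 as 1 sample the T-mDC calls of both were lost, with adjusted p of 0.191 for Ighv1-37 and 0.0958 for Ighv3-4. The call of Ighv3-4 was also lost on leaving out any 1 T-mDC library, N-mDC 2 or N-mDC 3, and that of Ighv1-37 on leaving out any 1 T-mDC library, N-mDC 2, N-mDC 3 or T-DC 2.

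Among plasma cell genes, Jchain and Tnfrsf17 came close to the order of the libraries by immunoglobulin share, and others, such as Mzb1, departed from it further. The FPKM of Jchain was 43.8, 344 and 96.2 in N-mDCs, 22.3, 426 and 211 in T-DCs and 93.6, 4.58 and 4.45 in T-mDCs. The libraries fell in the same order by Jchain and by immunoglobulin share, except that N-mDC 3 and T-mDC 1 changed places, as did T-mDCs 2 and 3. Jchain did not differ between T-DCs and T-mDCs by the test, at 3.17 ± 1.40 (SE) with an adjusted p of 0.168 (limma), and passed without T-DC 1, at 0.0326, or without T-mDC 1, at 0.0477. With T-mDCs 2 and 3 as 1 sample the adjusted p was 0.427. Sdc1, which encodes the plasma cell surface proteoglycan CD138, was at 0.974, 5.20 and 1.87 in N-mDCs, 0.586, 5.17 and 3.27 in T-DCs and 1.81, 0.285 and 0.243 in T-mDCs. Mzb1, a chaperone of antibody-secreting and marginal zone B cells, was at 45.9, 171 and 65.0 in N-mDCs, 9.44, 57.9 and 33.6 in T-DCs and 73.2, 5.15 and 5.65 in T-mDCs. By Mzb1 the order was headed by N-mDC 2, T-mDC 1 and N-mDC 3, so that T-DCs 2 and 3 were not among the highest 3 with N-mDC 2. Sdc1 and Tnfrsf17 were highest in the same 3 libraries as the immunoglobulin share, and Derl3, Fkbp11 and Eaf2 were not. Tnfrsf17 departed from the order by immunoglobulin share only among T-DC 1 and T-mDCs 2 and 3, where it was at 0, 0 and 0.0667 FPKM. Xbp1, a transcription factor of the secretory program, stayed between 42.2 and 95.9 and was highest in T-DC 1. Of the 12 plasma cell genes, Irf4 alone passed the test, lower in T-DCs in both comparisons, but with T-mDCs 2 and 3 as 1 sample the adjusted p against T-mDCs was 0.0874. That call was also lost without T-DC 3, T-mDC 2 or T-mDC 3. Irf4 is also a factor of the conventional DC lineage. Prdm1, which encodes the plasma cell regulator Blimp-1, was at 1.29 to 8.11 and did not pass.

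B cell genes had another pattern. Ms4a1, which encodes CD20, was at 21.2, 11.8 and 17.7 FPKM in N-mDCs, 0.713, 1.94 and 0.511 in T-DCs and 9.53, 3.72 and 4.42 in T-mDCs, so that the T-DC libraries lay below all others. On the log2(FPKM + 1) scale it was lower in T-DCs by 3.15 ± 0.38 (SE) against N-mDCs and by 1.71 ± 0.38 against T-mDCs, with adjusted p of 0.00171 and 0.0204 (limma). Pax5, the identity factor of B cells, was lower by 2.42 ± 0.40 and 1.81 ± 0.40, with 0.00626 and 0.0208. With T-mDCs 2 and 3 as 1 sample the calls of Ms4a1 and Pax5 against T-mDCs were lost, and each held under 18 of 23 alternatives. The B cell receptor signaling chain gene Cd79a was also lower in T-DCs against N-mDCs, at an adjusted p of 0.0402, while Cd79b was not called, with 0.107. Pou2af1, a coactivator of immunoglobulin transcription, was at 19.6, 19.9 and 19.7 in N-mDCs, 2.34, 23.0 and 9.38 in T-DCs and 36.8, 4.02 and 4.44 in T-mDCs.

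Of 14 B cell genes of a fixed list, 13 were tested. T-DCs had 10 of them below N-mDCs and 4 below T-mDCs, and T-mDCs had 2 below N-mDCs. No gene of the list was called higher in these comparisons. The summed FPKM of the list was between 462 and 601 in N-mDCs, between 88.7 and 203 in T-DCs and between 103 and 333 in T-mDCs. Its gene Ly6d is also on a list of 6 plasmacytoid DC genes. Ly6d was at 83.0, 162 and 137 FPKM in N-mDCs and lower in all other libraries. The plasmacytoid sum was 286.9, 648 and 564 in N-mDCs. For T-DCs it was 192.5, 145.9 and 160, while T-mDCs had 158, 68.6 and 63.5. Bst2 and Ccr9 of that list were called lower in T-DCs against N-mDCs, and none of it against T-mDCs. The part of plasmacytoid DCs in the B cell sum was not tested. Fewer cells of a type and less RNA per cell cannot be told apart in bulk samples. Of the genes of early B cell development, 5 of 7 stayed below 1 FPKM. Igll1 and Vpreb1, which encode the surrogate light chain, reached 0.049 and 0.155 FPKM at most, Vpreb2 was listed at 0 in all libraries, and the recombinase genes Rag1 and Rag2 reached 0.517 and 0.0747. Vpreb3, by contrast, was at 0.52 to 5.50, and Dntt, which encodes the terminal transferase that adds bases at joints, was at 2.92, 5.52 and 5.23 in N-mDCs, 5.98, 7.40 and 1.89 in T-DCs and 2.56, 0.657 and 0.971 in T-mDCs. No gene of the surrogate light chain and recombination list, or of the switching and germinal center list, passed the test.

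Transcripts of red cells were highest in the 3 libraries with the largest immunoglobulin share, N-mDC 2, T-DC 2 and T-DC 3. The summed FPKM of 8 erythroid genes was 99.4, 5359 and 485 in N-mDCs, 602.7, 57940 and 41950 in T-DCs and 179, 21.5 and 14.5 in T-mDCs, so that N-mDC 2 and T-DC 2, with like immunoglobulin shares, were far apart. T-DC 1 exceeded N-mDC 1, N-mDC 3 and T-mDC 1 by this sum and was below them by immunoglobulin share. The summed FPKM of 8 T lineage genes reached 83.5 in N-mDCs, 79.1 in T-DCs and 14.5 in T-mDCs, and that of 7 red pulp macrophage genes reached 4376, 3578 and 1708. The part of these transcripts in the immunoglobulin values was not tested.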

How the data were processed

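Poly(A) or total RNA selection, aligner and counter are not given in the sources used here; per the labels, total RNA of sorted splenic DCs was sequenced, and the submitters' processing notes name the build mm10. The authors deposited a table of FPKM per gene and library. FPKM times gene length gave whole reads in 100% of values (tolerance 0.001 read), so reads on genes per library are known. The deposited scaling gave median-of-ratios factors of 1 in all 9 libraries. The alternative with median-of-ratios scaling therefore repeats the main fit, and it is included in each number of alternatives given. J segments had 138 to 479 reads per library and D segments 0 to 15, and a single segment had at most 95, which limits their precision.

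Genes with FPKM of at least 1 in at least 3 libraries (12746) were tested on log2(FPKM + 1) with limma 3.58.1 (R 4.3.3, empirical Bayes with trend), all 9 libraries in 1 fit, and p-values were adjusted by Benjamini-Hochberg over all tested genes with a threshold of 0.05. The test was checked on simulated data. Limma voom on the recovered reads, an alternative, called 2019, 1910 and 173 genes where the fit called 2096, 1813 and 282. Groups and replicate numbers are those of the labels. Members and gene lists were chosen with earlier results of these data known. The text names the constant genes, the 3 leading variable segments of each library, the variable segments called, and companion genes of fixed lists; the single D and J segments, the segments beside the threshold, the close copies Igkv1-110 and Ighv1-20, and list genes such as Irf4, Rag1, Dntt and the DC genes are named outside that rule, after their values were seen. A gene of the B cell list that is left out of its counts and sums is not reported here. Sequences, positions and identities came from GENCODE M21 on GRCm38, where all 231 members had the position of the table (Biopython 1.88, Python 3.11.15). Promoter windows were not used, since the reference held none for the members. Other settings were the filter, pseudocount, scaling, sample weights, replicate block and leaving out each library.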

Additional observations from a re-analysis of the deposited data

How the results depend on the processing

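The number of members called depended on single libraries. Leaving out 1 library gave 1 to 13 for T-DCs against N-mDCs, 2 to 67 for T-DCs against T-mDCs and 0 to 6 for T-mDCs against N-mDCs. Of the 12746 genes tested, 980 to 5030, 541 to 4475 and 23 to 1022 were called in these fits. For these comparisons in turn, array weights, whose estimation did not converge, gave 166, 195 and 77, with 8485, 9923 and 3841 of all genes called. A stricter filter of FPKM of at least 5 gave 1, 1 and 0 of 171 members, beside 1449, 1190 and 111 of 8095 genes. T-DCs against T-mDCs had 4 with the looser filter, beside 1795 of 14656 genes. T-mDCs against N-mDCs had 0 with a pseudocount of 0.1, no filter, TPM rescaling, voom or the mean of T-mDCs 2 and 3. The same comparison had 1 with the looser filter, quantile normalization or a library total without hemoglobin and immunoglobulin genes. These settings called 23 to 327 of all genes in that comparison. TPM rescaling moved the median of all genes to -0.23 and 0.23 in the comparisons with T-mDCs. Ighd was called in both T-DC comparisons in all settings run. The kappa share of T-DCs was 90.1% over variable segments, and at equal depth 157 and 154 segments were seen in N-mDCs and T-DCs.

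The replicate numbers showed no steady pairing over the tested genes. The correlation of deviations ran from -0.475 to 0.269 between same-numbered libraries and from -0.361 to 0.427 between the others. By variable segment use, the same-numbered T-DC 1 and T-mDC 1 had the largest overlap of any pair, 79.4%. Whether some numbers stand for shared animals was not tested. A replicate block gave 4, 4 and 1 members, beside 1378, 1253 and 78 of 12746 genes. Groups of 3 libraries limit the test.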
